A study of Mus musculus with 10 samples.

Results

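The 10 genes described here belong to the cytosolic DNA sensing and inflammasome pathways: Aim2, Tmem173 (the gene of STING), Casp1, Pycard, Il18, Gsdmd, Il1b, Nlrp3, Tbk1 and Irf3. They were chosen by gene symbol, and all 10 were found among the 42465 gene models of the deposited table. RNA was sequenced from mouse neural tube (NT) explants taken at embryonic day 9.5, which contained neural crest cells, the migratory cells that give rise to pigment cells and peripheral glia. Explants were either WT or Ednrb-/-, lacking the endothelin receptor type B, with 5 biological replicates each. Both genotypes were cultured for 4 days in the same medium with 10% FBS and 20 nM EDN3, the ligand of that receptor. The labels give neither the mouse strain nor the allele, and the study's title places Aim2 between Ednrb and AKT in melanoblast proliferation.

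AIM2 binds double-stranded DNA in the cytosol and recruits the adaptor ASC, the product of Pycard, which in turn binds the protease caspase-1. Caspase-1 cleaves the precursors of IL-1 beta and IL-18 and the pore-forming protein gasdermin D, and NLRP3 is a second sensor that uses the same adaptor. STING is the receptor of a separate pathway: it binds the cyclic dinucleotide made by the DNA sensor cGAS and activates the kinase TBK1, which phosphorylates IRF3. These pathways are best known from macrophages and other immune cells, and AIM2 has also been described to restrain AKT.

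Ednrb, the targeted gene, checked the labels: it held 43.8 to 60.7 FPKM (fragments per kilobase of gene length, scaled to the library's depth) in WT and 2.34 to 11.7 FPKM in Ednrb-/- libraries, and the groups did not overlap. Reads worked back from the FPKM values came to between 13022266 and 19532570 per library. Ednrb-/- replicates 2 and 3 stood apart from the rest in how few genes held a handful of reads. Only 191 and 224 gene models had exactly 1 read there, against 1899 to 2421 in the WT libraries, 1151 in Ednrb-/- replicate 1, 2184 in replicate 4 and 986 in replicate 5. The same pair listed 26066 and 24570 gene models at 0, against 19252 to 21187 in WT. Ednrb-/- replicates 1 and 5 also lay above the WT range, at 21860 and 22205, and replicate 4 listed 19225. The cause was not tested. Main values are given with all libraries, and values without Ednrb-/- replicates 2 and 3 beside them. Leaving out that pair keeps replicates 1 and 5, which also held fewer genes at 1 read than the WT libraries.

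**Figure D1:**
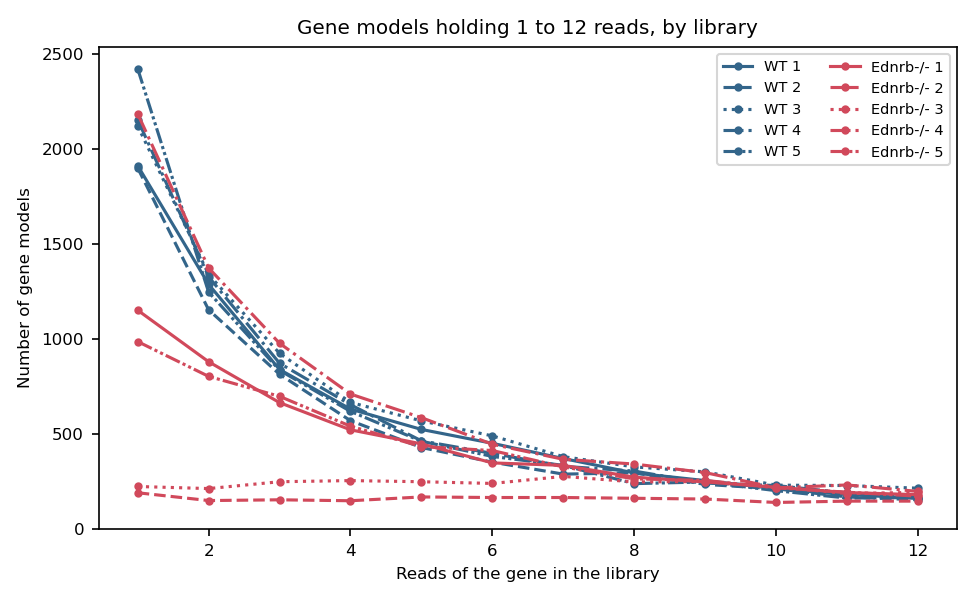
Number of gene models (vertical axis) that held 1 to 12 reads (horizontal axis) in each library, WT in blue and Ednrb-/- in red, with the replicate shown by line style. Ednrb-/- replicates 2 and 3 run low and flat, at 191 and 224 models with 1 read, while Ednrb-/- replicate 4, at 2184, follows the WT libraries.

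Among the members, Aim2 rose and Tmem173 fell in Ednrb-/- explants. These were the 2 that passed of the 6 tested, by limma with Benjamini-Hochberg adjustment over all genes and a threshold of 0.05. Over all 15156 genes tested 19.5% passed, 6.53% upward and 13.0% downward. For the comparison Ednrb-/- minus WT over all genes this was 990 higher and 1966 lower calls, against 1603 and 1730 after quantile normalization. Genes were tested where at least 5 of the 10 libraries held at least 0.5 FPKM. Il18, Gsdmd, Tbk1 and Irf3 were tested and did not pass. Casp1, Pycard, Il1b and Nlrp3 lay below that filter and are given by level.

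**Figure D2:**
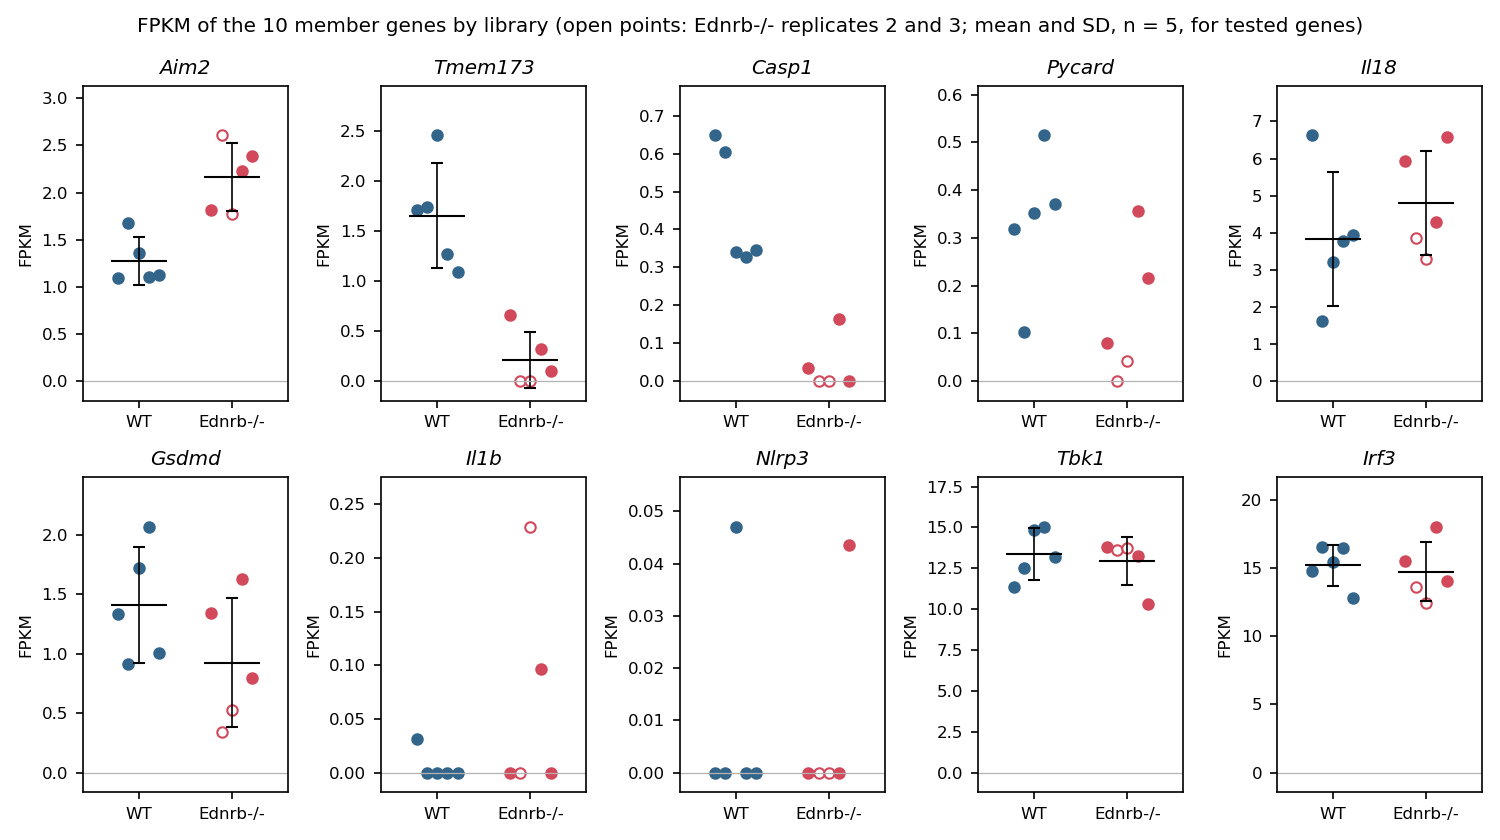
FPKM (vertical axes, each panel with its own scale) of the 10 genes in each WT library (blue) and Ednrb-/- library (red), with mean and SD of 5 for the 6 tested genes. Open points are Ednrb-/- replicates 2 and 3. Aim2 is higher, and Tmem173 and Casp1 are lower, in every Ednrb-/- library than in any WT library, while the groups overlap for the other genes.

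Aim2, the DNA sensor, was low in both genotypes and higher in Ednrb-/-. WT replicates 1 to 5 held 1.09, 1.68, 1.36, 1.10 and 1.12 FPKM. Ednrb-/- replicates 1 to 5 held 1.82, 2.61, 1.78, 2.23 and 2.38 FPKM. Every Ednrb-/- library was above the highest WT library, although the gap between WT replicate 2 and Ednrb-/- replicate 3 was small. Among all genes tested 4.78% were separated in this direction. The values rest on 53 to 91 reads in each WT library and 114 to 142 in each Ednrb-/- library. The difference of mean log2(FPKM + 0.5), used for all fold changes here but the ratio to Cadm3, was 0.59 with a standard error of 0.16 (limma, adjusted p = 0.0244). Permuting the libraries gave an exact two-sided p of 0.00794, the smallest that 5 against 5 allow. Any gene whose groups do not overlap gets this value, as 13.2% of all genes tested did in either direction. It restates the separation and is not adjusted. Without Ednrb-/- replicates 2 and 3 the difference was 0.58 (limma, adjusted p = 0.0650). The limma call was also lost without WT replicate 4 (0.0666), WT replicate 5 (0.0663) or Ednrb-/- replicate 5 (0.0612), and with no filter on low genes (0.0678).

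Cadm3, a cell adhesion gene of neurons, has a model that overlaps Aim2, and whether counting used strand is not given in the labels. In the file Aim2 lies on the plus strand of chromosome 1 from 185258101 to 185386443, in coordinates of the C57BL/6NJ assembly that its identifiers name, and Cadm3 on the minus strand from 185236816 to 185274946. The file gives no exons. In the GENCODE M21 annotation of mm10, the exons of Aim2 cover 3501 bases, the same length as the file uses. There the spans overlap by 16817 bases, and 0 exonic bases are shared. The match is not complete: the exons of Cadm3 cover 7248 bases there, against 7114 in the file, where the spans overlap by 16846 bases. Whether the models that were counted share exonic bases is therefore not known. A single Aim2 exon of 95 bases, at chr1:173350879-173350973, or 2.71% of its exonic bases, lies inside the Cadm3 span. The RefSeq start of Aim2, at position 173420604, is 52909 bases beyond the end of Cadm3.

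Cadm3 held 22.5 to 27.9 FPKM in WT and 24.5 to 42.7 FPKM in Ednrb-/- libraries. Its groups overlapped, and it rose by the test, with a log2 difference of 0.47 (limma, adjusted p = 0.0393; exact permutation p = 0.0238). The limma call was lost without Ednrb-/- replicates 2 and 3, at 0.28 (0.203), and without any 1 of WT replicates 3, 4 and 5 or Ednrb-/- replicates 2, 3 and 5 (0.0793 to 0.0943). It was lost too with no filter on low genes (0.0697), after rescaling all libraries to the same FPKM sum (0.0505) and without the trend in the prior variance (0.0577). Of 21 alternatives, 10 kept the call. Aim2 stood at 3.92, 6.42, 5.81, 4.90 and 4.91% of the Cadm3 FPKM in WT replicates 1 to 5, and at 7.43, 6.11, 4.40, 7.19 and 6.88% in Ednrb-/- replicates 1 to 5. The ratio thus varied from library to library, and the Ednrb-/- library with the second highest Cadm3, replicate 3, had the lowest ratio of its group. The mean log2 ratio was -4.29 ± 0.27 in WT and -3.99 ± 0.31 in Ednrb-/- (SD, n = 5 each), a difference of 0.30 (exact two-sided permutation p = 0.127). This ratio has no pseudocount; with 0.5 added to both genes, as in the fold changes, the difference was 0.12 (exact permutation p = 0.452). Without Ednrb-/- replicates 2 and 3 the difference was 0.48 (exact permutation p = 0.0357), and without replicate 3 alone 0.43 (exact permutation p = 0.0317). Of the alternatives run, these were the ones in which the ratio passed, and both leave out Ednrb-/- replicate 3.

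**Figure D3:**
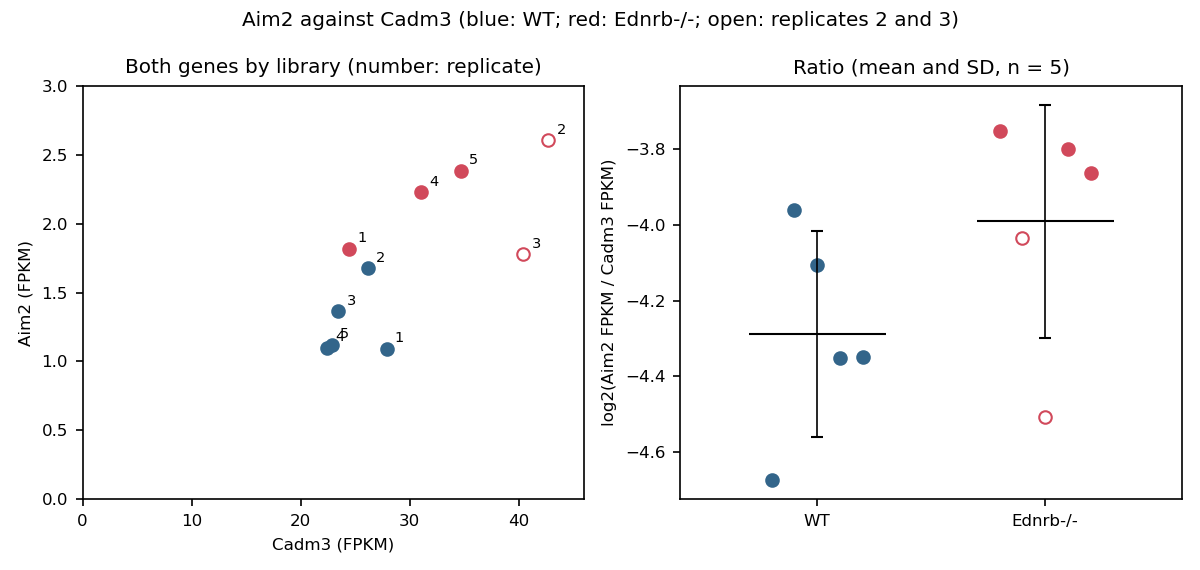
Left, Aim2 FPKM against Cadm3 FPKM in each library, with the replicate number beside each point. Right, log2 of the Aim2 to Cadm3 ratio by genotype, with mean and SD of 5; WT is blue, Ednrb-/- red, and open points are Ednrb-/- replicates 2 and 3. The ratio overlaps between genotypes, with means of -4.29 and -3.99.

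The other genes of the AIM2-like receptor family, which sit beside Aim2 on chromosome 1, were low or at 0. Of 16 symbols of the family 4 were matched in the table, Aim2 among them. Ifi203, Ifi204 and Ifi205 held less than 0.5 FPKM in every library, with a highest value of 0.19 FPKM, that of Ifi204 in WT replicate 5. Aim2 was the 1 family member matched that could be tested.

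The genes whose pattern over the 10 libraries was most like that of Aim2 were Wasf3, an actin regulator, with a Pearson r of 0.97 on log2 values, Tmcc1 (0.95), Frmd5 (0.95), the kinase gene Rps6ka5 (0.94) and the activin receptor gene Acvr1b (0.94). These are annotated protein-coding genes ranked over the same 10 libraries, so the difference between genotypes is part of each value. After removing each genotype's mean the values for these genes were 0.89, 0.84, 0.84, 0.77 and 0.81. For Cadm3 they were 0.75 over all libraries and 0.35 within genotypes. The 2-group design and the shared libraries allow no more than a description.

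Casp1, the protease that inflammasomes activate, was at or near 0 in Ednrb-/- explants and low in WT. WT replicates 1 to 5 held 0.648, 0.604, 0.340, 0.327 and 0.346 FPKM, from 16, 14, 8, 8 and 7 reads. Ednrb-/- replicates 1 and 4 held 0.0337 and 0.164 FPKM, from 1 and 4 reads, and replicates 2, 3 and 5 were listed at 0. A count of 0 allows up to 3 reads, or 0.154, 0.109 and 0.118 FPKM in those 3 libraries, counting error only. In all, 53 reads were counted in WT and 5 in Ednrb-/-. Every Ednrb-/- library was below every WT library. Replicate 4, which has as many genes at low reads as the WT libraries, was below them too. Among 12988 genes that were above 0 but below the filter, 2.13% were separated in this direction. Genes at 0 in any WT library count in that share but cannot be separated downward. The share among genes with reads in every WT library, as Casp1 had, is therefore higher and was not counted.

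Casp4, the gene of the caspase that senses bacterial lipopolysaccharide, lies next to Casp1 on chromosome 9 and was looked at after its values were seen. It held 0.15 to 0.28 FPKM in WT and 0 to 0.08 FPKM in Ednrb-/- libraries, without overlap. These came from 60 reads in WT and 12 in Ednrb-/-.

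The sequences before the starts of Aim2 and Casp1, the inflammasome members that lay apart in opposite directions, are shown for comparison. They are the 250 bases before the RefSeq start on GRCm38.p6, plus strand, at chr1:173420354-173420603 and chr9:5298267-5298516. Capitals mark a palindromic E-box.
Aim2: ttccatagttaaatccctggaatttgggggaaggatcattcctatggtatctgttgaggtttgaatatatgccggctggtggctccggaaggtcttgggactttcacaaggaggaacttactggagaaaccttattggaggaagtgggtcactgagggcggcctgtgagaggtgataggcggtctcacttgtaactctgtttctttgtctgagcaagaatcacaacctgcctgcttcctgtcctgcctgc
Casp1: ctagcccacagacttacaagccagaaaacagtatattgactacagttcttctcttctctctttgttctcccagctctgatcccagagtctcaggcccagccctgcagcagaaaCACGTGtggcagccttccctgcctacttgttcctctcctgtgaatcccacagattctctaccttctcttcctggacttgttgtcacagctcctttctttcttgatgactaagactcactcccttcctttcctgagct

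The 3 motifs searched, on both strands, were the palindromic E-box CACGTG, the E-box CATGTG that MITF can bind, and the interferon response element. Promoters of 8 members were matched by symbol in the RefSeq table. The interferon response element was in 0 of the 8 and in 2.98% of all 32851 promoters. CACGTG was in that of Casp1, starting 137 bases before the start, and in 6.02% of all promoters, and CATGTG was in that of Pycard and in 12.3% of all. A match is a description of the letters and not a binding site.

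Pycard, the adaptor that links AIM2 and NLRP3 to caspase-1, was also low. WT replicates 1 to 5 held 0.319, 0.102, 0.351, 0.515 and 0.370 FPKM. Ednrb-/- replicates 1 to 5 held 0.0798, 0, 0.0431, 0.356 and 0.217 FPKM. The groups overlapped: Ednrb-/- replicate 4 lay within the WT range, and WT replicate 2 within the Ednrb-/- range. The lowest Ednrb-/- libraries were replicates 2 and 3, the pair with few low genes, and the groups overlapped without them too. Pycard overlaps an unnamed model on the opposite strand by 588 bases, which held at most 0.230 FPKM in any library.

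Nlrp3, the other sensor among the members, was listed at 0 in 8 of 10 libraries. It held 0.0470 FPKM in WT replicate 3 and 0.0435 FPKM in Ednrb-/- replicate 5, from 3 reads each. Of the other inflammasome sensor list 13 of 17 symbols were matched and 3 could be tested. The sensor genes Nlrp1b, Nlrp12 and Mefv were at 0 in all libraries, and 10 of the 13 never reached 0.5 FPKM. Nek7, the kinase that NLRP3 needs for assembly, was tested and fell: its mean was 4.22 ± 1.08 FPKM in WT and 1.86 ± 0.76 FPKM in Ednrb-/- (SD, n = 5 per genotype), with an adjusted p of 0.0183 by limma. The call was lost when WT replicate 3 was left out (0.0513) and when Ednrb-/- replicates 2 and 3 were (0.0559). Dpp8 and Dpp9, the peptidases that hold NLRP1 inactive, did not pass, with log2 differences of 0.10 and -0.16. The median of the 3 was -0.16, beside 0.0048 over all genes tested.

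Il18, the cytokine precursor that caspase-1 cleaves, was the best expressed inflammasome member. WT replicates 1 to 5 held 6.63, 1.63, 3.21, 3.77 and 3.94 FPKM. Ednrb-/- replicates 1 to 5 held 5.94, 3.87, 3.29, 4.30 and 6.59 FPKM. The groups overlapped, with WT replicate 1 highest and WT replicate 2 lowest of all 10. The log2 difference was 0.35 with a standard error of 0.29 (limma, adjusted p = 0.435). For Il18 it was 0.58 without Ednrb-/- replicates 2 and 3 (0.299), 0.56 without WT replicate 1 (0.159) and 0.12 without WT replicate 2 (0.758).

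Il1b, the other cytokine precursor, was listed at 0 in 4 WT and 3 Ednrb-/- libraries. It held 0.0318 FPKM in WT replicate 1 and 0.229 and 0.0967 FPKM in Ednrb-/- replicates 3 and 4, from 1, 8 and 3 reads. Its span overlaps that of the antisense gene Il1bos by 1237 bases. Shared exonic bases were not counted for this pair, so whether its reads can be told apart without strand is not known. At this depth no difference between genotypes was detectable.

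Gsdmd, the pore former downstream of caspase-1, overlapped between genotypes. WT replicates 1 to 5 held 1.33, 0.910, 1.72, 2.07 and 1.00 FPKM. Ednrb-/- replicates 1 to 5 held 1.34, 0.346, 0.523, 1.63 and 0.795 FPKM. The lowest libraries were again Ednrb-/- replicates 2 and 3. The log2 difference was -0.47 with a standard error of 0.29 (limma, adjusted p = 0.284), and -0.11 without that pair (0.814).

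In the list of adaptor, caspases and gasdermins 2 of the 4 tested genes counted here fell, with a median log2 difference of -0.998, beside 13.0% and 0.0048 over all genes. The count was 1 without Ednrb-/- replicates 2 and 3. Casp8, an initiator caspase of cell death that ASC can also recruit, fell from 4.66 ± 1.15 to 1.11 ± 0.38 FPKM. Its log2 difference was -1.68 with a standard error of 0.23 (limma, adjusted p = 0.00276; 0.0280 without Ednrb-/- replicates 2 and 3). Ninj1, which ruptures the membrane after gasdermin pores form, fell from 12.3 ± 3.43 to 4.37 ± 2.55 FPKM (SD, 5 libraries each), with an adjusted p of 0.0143 by limma and 0.0614 without the same pair.

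The list of the IL-1 family and its receptors held 7 tested genes, among them Il18 and its secreted binding protein Il18bp. Of these 3 fell and 0 rose, with a median of -0.37. Over all genes 13.0% fell, and without Ednrb-/- replicates 2 and 3 the count was 1. Il1rap, the shared chain of the IL-1 and IL-33 receptors, fell from 2.67 ± 0.84 to 0.854 ± 0.255 FPKM (SD, 5 libraries each), with an adjusted p of 0.00465 by limma and 0.0320 without Ednrb-/- replicates 2 and 3. The adaptor gene Myd88 and the kinase gene Irak1 fell by 0.60 and 0.37 on the log2 scale (limma, adjusted p = 0.0350 and 0.0280; 0.155 and 0.0975 without Ednrb-/- replicates 2 and 3). These small falls were also lost when each of several single libraries was left out: Myd88 when any but WT replicate 2 or Ednrb-/- replicate 4 was, with adjusted p up to 0.0922, and Irak1 without WT replicate 3, 4 or 5 or Ednrb-/- replicate 2 or 5, with up to 0.0785. After quantile normalization Myd88 and Irak1 did not pass either (limma, adjusted p = 0.0609 and 0.0635). Irak4, the partner kinase, did not pass at -0.60 (limma, adjusted p = 0.0597). It passed without WT replicate 2 (0.0139) or Ednrb-/- replicate 4 (0.0487). With array weights (0.00705) or without the trend in the prior variance (0.0307) Irak4 passed too.

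Tmem173, the gene of STING, showed the widest separation among the tested members. WT replicates 1 to 5 held 1.71, 1.74, 2.46, 1.27 and 1.09 FPKM, from 34 to 89 reads each. Ednrb-/- replicates 1, 4 and 5 held 0.658, 0.320 and 0.102 FPKM, from 30, 12 and 4 reads, and replicates 2 and 3 were listed at 0. A count of 0 there allows up to 0.10 and 0.0712 FPKM, counting error only. Every Ednrb-/- library was below every WT library, replicate 4 included. Among all genes tested 8.44% were separated downward.

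The log2 difference of Tmem173 was -1.64 with a standard error of 0.28 (limma, adjusted p = 0.00403; exact permutation p = 0.00794). As for Aim2, the permutation value restates the separation. Without Ednrb-/- replicates 2 and 3 the log2 difference was -1.34 (limma, adjusted p = 0.0298), and no single library left out ended the call. The size depends on the pseudocount, at -2.88 with 0.1 in place of 0.5 and -4.10 by limma voom on the worked-back reads. The gene passed the filter in 6 libraries, the 5 WT and Ednrb-/- replicate 1, so its high group brought it into the test. In the coordinates of the file the gene spans 35285057 to 35291933 of chromosome 18, minus strand, and no other model overlaps it.

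Tbk1 and Irf3, the kinase and the transcription factor below STING, had the highest levels per length of the members, and neither passed the test. Tbk1 held 11.3, 12.5, 14.9, 15.0 and 13.2 FPKM in WT replicates 1 to 5 and 13.8, 13.6, 13.8, 13.3 and 10.3 FPKM in Ednrb-/- replicates 1 to 5. The log2 difference was -0.05 with a standard error of 0.11 (limma, adjusted p = 0.811). Irf3 held 14.8, 16.5, 15.4, 16.5 and 12.8 FPKM in WT and 15.5, 13.6, 12.4, 18.0 and 14.0 FPKM in Ednrb-/- replicates 1 to 5. Its difference was -0.05 with a standard error of 0.11 (limma, adjusted p = 0.791). The groups overlapped for both genes, and both sat well above Tmem173 per length. The gene of cGAS, listed as Mb21d1 and looked at after its values were seen, held 0.24 to 0.52 FPKM in WT and 0.22 to 0.60 FPKM in Ednrb-/- libraries, with overlap.

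In the wider cGAS-STING list 4 of 17 tested genes fell and 0 rose, with a median of -0.14 beside 0.0048 over all genes, of which 13.0% fell. Besides Tmem173 these were Surf4, Stim1 and Samhd1, and the count was 3 without Ednrb-/- replicates 2 and 3. Surf4, a cargo receptor that returns STING to the endoplasmic reticulum, fell from 78.3 ± 14.2 to 43.8 ± 5.68 FPKM (SD, 5 libraries each), with an adjusted p of 0.00334 by limma. Stim1, a calcium sensor that retains STING there, fell from 9.20 ± 2.30 to 4.43 ± 0.68 FPKM (SD, 5 libraries each), with an adjusted p of 0.00451 by limma. Both kept their call without Ednrb-/- replicates 2 and 3, at 0.0296 and 0.0359. Samhd1, which breaks down deoxynucleotides, fell by 0.44 on the log2 scale (limma, adjusted p = 0.0435; 0.0908 without that pair). Leaving out any 1 of WT replicates 2 to 5 or of Ednrb-/- replicates 1, 2 and 5 ended the call as well, at 0.0575 to 0.115. Quantile normalization (0.128) and rescaling all libraries to the same FPKM sum (0.0532) ended it too.

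RNA-sensing genes that feed the same kinase were lower in 3 of 8 tested and higher in 0, with a median of -0.41, beside 13.0% of all genes lower. The count was 4 without Ednrb-/- replicates 2 and 3. Ticam1, the adaptor of the RNA receptor TLR3, fell from 2.17 ± 0.15 to 0.887 ± 0.323 FPKM (SD, 5 libraries each), with an adjusted p of 0.00478 by limma. Ddx58, the gene of the RNA sensor RIG-I, and Optn, a ubiquitin-binding partner of TBK1, fell by 1.02 and 0.78 on the log2 scale (limma, adjusted p = 0.0115 and 0.00802). Without Ednrb-/- replicates 2 and 3 the adjusted p of Ticam1, Ddx58 and Optn were 0.0314, 0.0443 and 0.0462. Ddx58 passed the filter in 6 libraries, the 5 WT and Ednrb-/- replicate 4, so its high group brought it into the test. Mavs, the adaptor of RIG-I, did not pass at -0.60 (0.0617). It passed without Ednrb-/- replicates 2 and 3 at -0.83 (0.0306), without Ednrb-/- replicate 3 alone (0.0162) and without WT replicate 1 (0.0420). With array weights Mavs passed too (0.0249).

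Interferon-stimulated genes were sparse. Of 22 found 9 could be tested, and 2 fell and 0 rose, with a median of -0.52. Over all genes 13.0% fell, with a median of 0.0048. Ifnb1, the gene of interferon beta, was listed at 0 in all 10 libraries. Bst2, the viral tether, held 4.61 to 8.73 FPKM in WT and 0 to 5.63 FPKM in Ednrb-/- libraries (limma, log2 difference -2.18, adjusted p = 0.0231). Irf1, an interferon-induced factor, fell by 0.70 on the log2 scale (limma, adjusted p = 0.0317). Both calls were lost without Ednrb-/- replicates 2 and 3 (0.0606 and 0.0640) and without WT replicate 3, 4 or 5 or Ednrb-/- replicate 5, at 0.0549 to 0.0906. The Irf1 call was lost as well without WT replicate 1 (0.0550) or Ednrb-/- replicate 1 (0.0548) or 2 (0.0544). It was lost after quantile normalization too (0.0664). Ifit2 and Stat2 did not pass, at -0.73 and 0.38 (limma, adjusted p = 0.0982 and 0.101). Ifit2 passed without WT replicate 2 (0.0375) and with array weights (0.00755). Stat2 passed without WT replicate 1 (0.0462) or Ednrb-/- replicate 1 (0.0275) and after quantile normalization (0.0445).

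DNA-PK and AKT genes were included because AIM2 has been linked to them. Of the 9 tested genes counted here 1 fell, with a median of -0.10, beside 13.0% lower over all genes. Akt1, an AKT kinase gene, fell from 93.9 ± 5.38 to 77.3 ± 5.14 FPKM (SD, 5 libraries each), with an adjusted p of 0.0236 by limma, and its groups did not overlap. The call was lost without Ednrb-/- replicates 2 and 3 (0.103), without WT replicate 3 (0.0538), 4 (0.0629) or 5 (0.0545), and without Ednrb-/- replicate 5 (0.0623). Rictor, a subunit of the kinase complex that phosphorylates AKT, and the DNA-PK subunit genes Xrcc6 and Xrcc5 did not pass, at -0.26, -0.15 and -0.14 (limma, adjusted p = 0.261, 0.445 and 0.537).

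Over these lists as counted here, with 108 genes found, 58 were tested, 1 rose (Aim2) and 16 fell, with a median of -0.15. After quantile normalization the pathway lists had 3 rises and 12 falls. The share called was 29.3%, beside 19.5% over all genes. Without Ednrb-/- replicates 2 and 3 the set had 0 rises and 9 falls, and 9.33% of all genes were called. The count of calls in the set was 10 without WT replicate 3, 4 or 5 and 10 without Ednrb-/- replicate 5. Calls over all genes moved as well, from 2956 with all libraries to between 1898 and 3240 with single libraries left out.

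**Figure D4:**
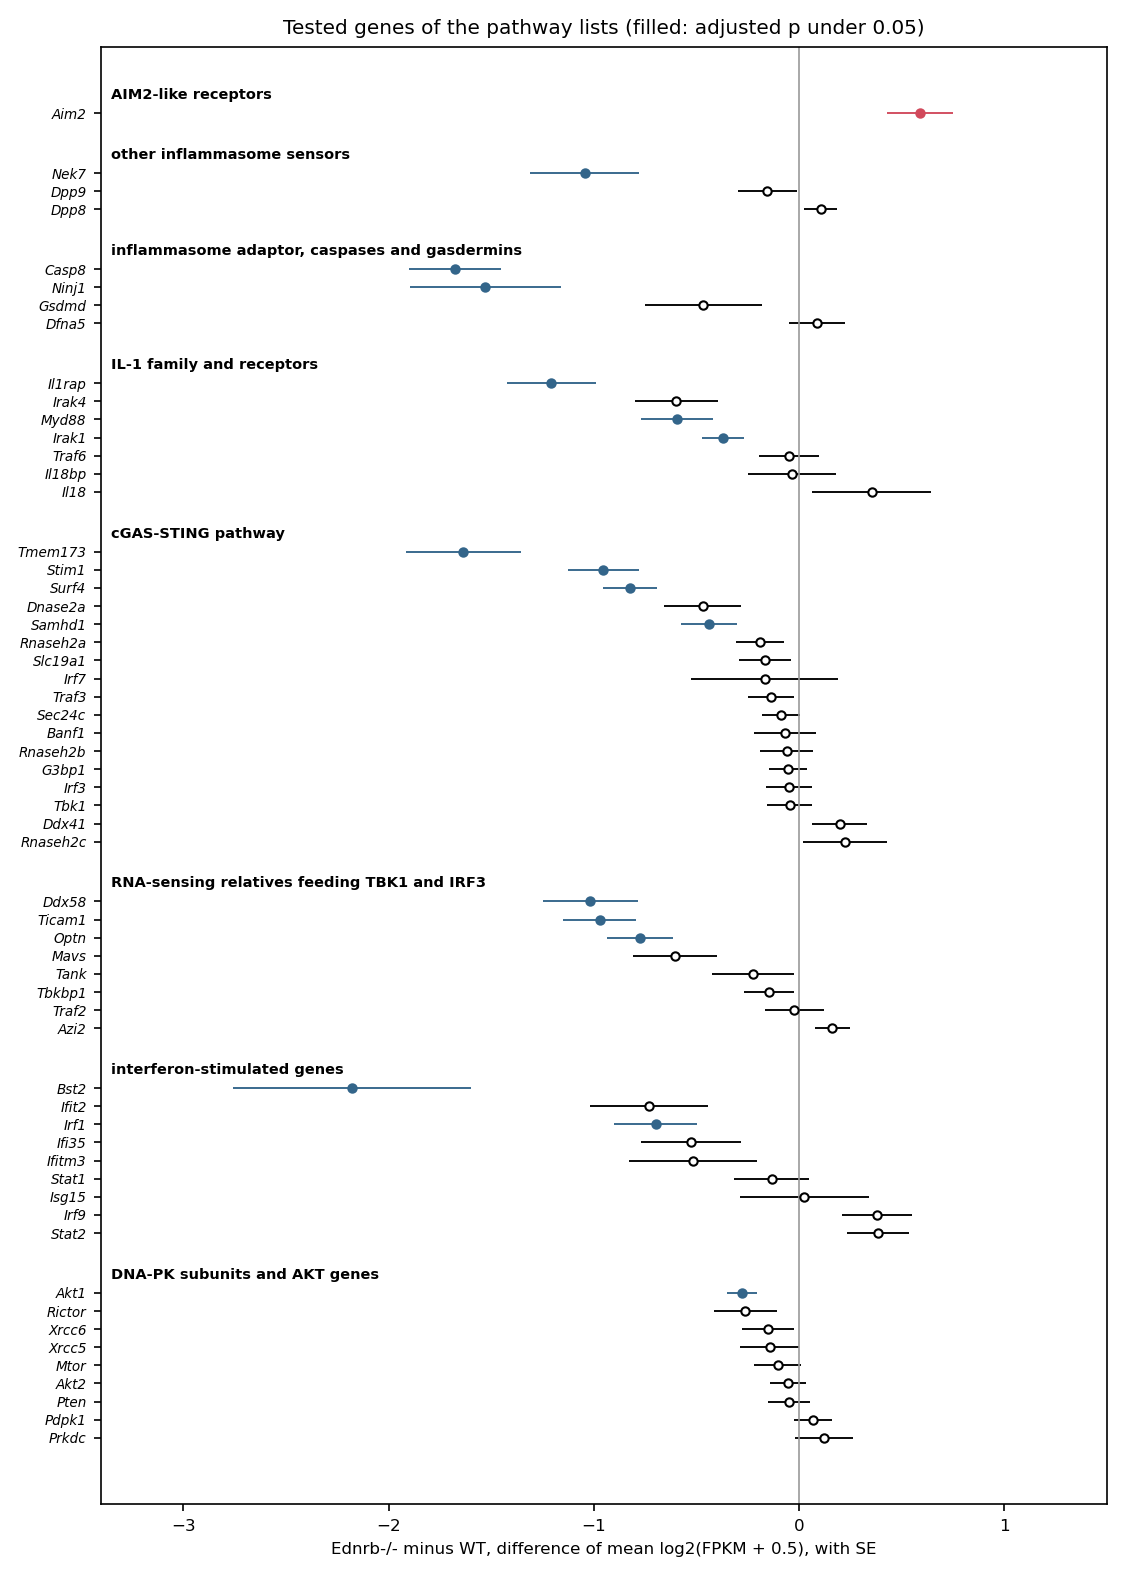
Difference of mean log2(FPKM + 0.5), Ednrb-/- minus WT, with its standard error (horizontal axis) for each of the 58 tested genes counted in the pathway lists, grouped by list. Filled points passed at an adjusted p under 0.05, red upward and blue downward; Aim2 lies filled to the right of 0, and 16 genes lie filled to the left.

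Marker genes of several cell types moved between the genotypes, and in these bulk samples fewer cells of a type and less RNA per cell cannot be told apart. Of 16 macrophage and microglia markers found, 14 never reached 0.5 FPKM, and Itgam, C1qa, C1qc, Tyrobp and Trem2 were at 0 in all libraries. Their summed level was 1.67 to 3.16 FPKM in WT and 0.174 to 2.75 FPKM in Ednrb-/-, and Cd68, the 1 that was tested, did not pass. All 9 neuron markers tested rose (4 without Ednrb-/- replicates 2 and 3), with log2 differences of 0.42 to 0.74, a range that holds the 0.59 of Aim2. Their summed level was 926.9 to 1268 FPKM in WT and 1569.96 to 1768 FPKM in Ednrb-/-. Beside these marker counts, 6.53% of all genes tested rose and 13.0% fell, and 9.33% passed without Ednrb-/- replicates 2 and 3. Of the smooth muscle and fibroblast-like markers 9 of 10 fell and 1 rose (5 and 0 without that pair), from a summed 475.1 to 3269 FPKM in WT to 87.4 to 369.8 FPKM in Ednrb-/-. Of the neural crest and pigment cell markers 7 of 9 fell (6 without that pair). Their summed level went from 90.1 to 216.7 FPKM in WT to 43.4 to 63.8 FPKM in Ednrb-/-. No marker of these last 3 lists was at 0 in all libraries. The part of these cell types in the changes of Aim2, Tmem173 and Casp1 was not tested.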

How the data were processed

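The deposited values are FPKM, which the authors computed per gene for 10 libraries. Tools named in the submitters' processing notes are HISAT2 2.0.5, featureCounts 1.5.0-p3 and fastp, with the build mm10, while the identifiers are those of the C57BL/6NJ annotation; strand use and filters are not stated. Columns were matched to samples by genotype and replicate number, with 0 further columns of sample values. FPKM times gene length was a whole multiple of 1 step per library for 100% of values within 0.01 of a read, which gave the reads quoted. The depth implied by that step was 0.953 to 1.03 times the summed reads in WT libraries. In Ednrb-/- libraries it was 1.00 to 1.02 times, and the reason was not tested. Intervals and floors cover counting error only, since PCR reads without molecular identifiers are not independent molecules.

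Genes with at least 0.5 FPKM in at least 5 libraries (15156) were tested with limma 3.58.1 in R 4.3.3 on log2(FPKM + 0.5), with trended prior variance, no covariate, two-sided p values and Benjamini-Hochberg adjustment. Exact permutations covered all 252 assignments. The labels call the replicates biological without naming litters, so p values measure the spread between these libraries. The fit was tested on simulated data. Members and lists were chosen with earlier results of these data known, so no count is independent support; 167 of 191 list symbols were found, and 2 further list genes are not reported here and were left out of every list count, median and plot. Named genes were the members, Cadm3, Ednrb, up to 4 lowest-p tested genes of each list (the cell type marker lists are given as counts, ranges and summed levels) and the 5 genes most like Aim2. Casp4, Mb21d1, Il18bp and the genes named as at 0 or low in all libraries were chosen after their values were seen. Leaving out Ednrb-/- replicates 2 and 3, and voom, were chosen after seeing the data. Of the other marker lists, 1 of 7 neural tube progenitor genes rose and 1 fell, and 1 endothelial gene was tested and fell. Over all genes 6.53% rose and 13.0% fell. Promoters were taken from RefSeq on GRCm38.p6.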

Additional observations from a re-analysis of the deposited data

Results flagged for a closer look

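In 5 of the 20 groups of 5 libraries, 2 for each member, a single library lay farther from the rest than Dixon's limit of 0.71 of the range, which chance does in about 1 of 20 groups. For genes near 0 a few reads in 1 library are enough. Where all other libraries of a group are listed at 0, the limit is always passed, and that rate does not apply. This was so for Il1b in WT and for Nlrp3 in both genotypes. Casp1 held 0.164 FPKM in Ednrb-/- replicate 4, from 4 reads, while the other Ednrb-/- libraries held 0.0337 FPKM or were listed at 0. Il1b held 0.0318 FPKM in WT replicate 1, from 1 read, with the other WT libraries listed at 0. Nlrp3 held 0.0470 FPKM in WT replicate 3 and 0.0435 FPKM in Ednrb-/- replicate 5, from 3 reads each, and was listed at 0 elsewhere. Tbk1 held 10.3 FPKM in Ednrb-/- replicate 5, below the 13.3 to 13.8 FPKM of the other Ednrb-/- libraries, from 532 reads.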

How the results depend on the processing

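Tmem173 kept its direction and its call in all 21 alternatives, with log2 differences of -4.10 to -1.13 and adjusted p of 0.00206 to 0.0298. Aim2 kept its direction in all 21, from 0.48 to 0.79, and its call in 15. Of the members tested 2 passed, and 1 (Tmem173) with no filter, with the replicate block and without Ednrb-/- replicates 2 and 3; leaving out single libraries gave 1 to 2. Tbk1 and Irf3, which did not pass anywhere, changed sign around 0: Tbk1 was 0.0077 after quantile normalization and ran from -0.102 to 0.0307 with single libraries left out (highest without Ednrb-/- replicate 5), and Irf3 ran from -0.124 to 0.0054 (highest without Ednrb-/- replicate 3) and was 0.0567 without Ednrb-/- replicates 2 and 3. The 17 calls among pathway genes became 10 with the replicate block and 9 without Ednrb-/- replicates 2 and 3, and 10 to 18 when single libraries were left out, and 21 with array weights.

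For Ednrb-/- minus WT over all genes 2956 calls became 1877 with the replicate block and 1383 without Ednrb-/- replicates 2 and 3, and 1898 to 3240 when single libraries were left out (1898, 1912 and 1902 without WT replicates 3, 4 and 5), and 4281 with array weights; the causes were not tested. The block was no part of the design: deviations of libraries with the same replicate number had correlations of -0.163 to 0.153, and 1 of 5 correlated best with its own number. Under the block Aim2 had an adjusted p of 0.0666 and Cadm3 of 0.0841 by limma. The Aim2 to Cadm3 difference ran from 0.20 to 0.43 with single libraries left out, was 0.12 with a pseudocount of 0.5, and passed without Ednrb-/- replicate 3 and without replicates 2 and 3 (0.48). The edgeR and DESeq2 alternatives were not run, since the deposited values are FPKM. Members below 0.5 FPKM rest on few reads, and differences there are limited by depth.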

Other observations

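Beyond the member genes, the genes whose pattern was most like that of Tmem173 over the 10 libraries were ranked after its values were seen, by the measure used for Aim2. They were Nr4a1, an early response nuclear receptor gene, with a Pearson r of 0.98, the CREB coactivator gene Crtc3 (0.97), the collagen gene Col14a1 (0.96), Slc27a6 (0.96) and the gap junction gene Gja1 (0.96). After removing each genotype's mean the values were 0.94, 0.82, 0.78, 0.81 and 0.74, again raised by picking genes for a high r in these libraries. Slc27a6 passed the filter in 6 libraries, the 5 WT and Ednrb-/- replicate 1, so its high group brought it into the ranking. Trex1, the exonuclease that removes cytosolic DNA, was listed at 0 in all 10 libraries.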
